A study of Mus musculus with 2 samples.

Results

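The respiratory chain subunits described here are the products of nuclear genes for complexes I, III and IV and for the ATP synthase, which is counted as complex V. They were taken as every gene whose symbol begins with Ndufa, Ndufb, Ndufc, Ndufs or Ndufv and a digit, or with Uqcr, Cox4i, Cox5, Cox6, Cox7, Cox8 or Atp5, and that has at least 1 transcript annotated as protein-coding. The rule found 81 gene entries with 80 symbols, of 21901 protein-coding genes. Complex I had 35 entries, complex III 8, complex IV 20 and complex V 18. Ndufa4 and Ndufa4l2 were counted with complex IV, where the product of Ndufa4 is now placed. The symbol rule leaves out complex II and several other subunit genes, whose values are given further on.

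RNA depleted of ribosomal RNA was measured in the nuclear fraction, which the labels also call nucleoplasmic, of bone-marrow-derived macrophages (BMDM), primary cells of C57BL/6J mice. All cells had met Lipid A, the moiety of bacterial lipopolysaccharide recognised by TLR4, at 100 ng/ml for 12 h, had been washed and kept without it for 12 h, and had met it again at 100 ng/ml for the last 40 min. Both libraries form a single group without unexposed cells, so the values below are levels and not responses. The RNA input was 1 µg for library 1 and 500 ng for library 2, so replicate number and input cannot be told apart. The labels give both libraries the same donor entry and no sex or age, and the spread between them may therefore be technical.

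The depth was 19797829 expected counts for library 1 and 17213606 for library 2. The 7 macrophage markers were all detected, at a mean of 59.9 to 1311 TPM (transcripts per 1e6, a length-scaled level). The summed level of the 5 muscle markers was 0.14 TPM in library 1 and 0 in library 2, and of the T cell markers Cd4 alone was detected, at 19.8 and 23.0 TPM. Mitochondrial genes held 2.63% of counts in library 1 and 6.60% in library 2, so the fraction held RNA from outside the nucleus. Its part in the levels of the subunit genes was not tested. In such bulk samples, fewer cells of a type and less RNA per cell cannot be told apart.

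Complex I takes electrons from NADH, complex III passes them on to cytochrome c, and complex IV hands them to oxygen. These steps pump protons across the inner mitochondrial membrane, and complex V uses their return to make ATP. Most subunits are encoded in the nucleus, made in the cytosol and imported, while a small set, among them the membrane core of complex I and the catalytic subunits of complex IV, is encoded in mitochondrial DNA. Macrophages activated through TLR4 are known to shift their ATP production toward glycolysis, with less flow through the chain.

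Most subunit genes were present at a middling level in this fraction. Of the 81 entries, 71 (87.7%) had 10 or more expected counts in both libraries and are called detected, against 50.1% of all protein-coding genes. The median over all 81 entries was 8.20 TPM in library 1 and 7.69 in library 2, or 8.03 TPM from the mean of both. That level lay at percentile 55.9 ± 3.48 of the detected protein-coding genes (SD, n = 2 libraries), whose own median was 6.42 TPM. By expected counts, without scaling for length, the members' median stood at percentile 26.6. Their median effective length was 478 nt, against 2305 nt for detected protein-coding genes.

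The complexes differed in level, and so did the subunits within each. The median was 7.35 TPM in library 1 and 5.89 in library 2 for complex I, and 9.90 and 8.91 TPM for complex III. Complex IV had a median of 8.91 and 6.69 TPM over all 20 entries, and of 19.9 and 19.0 TPM without its 8 tissue isoforms. Complex V stood at 16.3 and 10 TPM, the widest gap between the libraries among these medians. Complex I thus lay at percentile 50.6, complex III at 62.7, complex IV without tissue isoforms at 76.6 and complex V at 69.8. With all 20 entries complex IV lay at 54.9, while complexes I and V keep their undetected entries here. By expected counts the percentiles were 23.9, 34.9, 36.9 without tissue isoforms, and 30.8. The order of complexes III and V thus depended on the scaling for length. The highest detected mean level exceeded the lowest 12.6-fold in complex I, 5.59-fold in complex III, 9.05-fold in complex IV and 26.4-fold in complex V. Subunits of one complex are needed in fixed proportion, but these folds do not all compare such subunits. Atp5g1, the lowest of complex V, is 1 of 3 genes for a single subunit. In complex I the extremes, Ndufa3 and Ndufb4, rest on few reads, as does Cox7b, the lowest detected gene of complex IV. Atp5b was the only entry among the highest 10% of detected protein-coding genes.

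**Figure D1:**
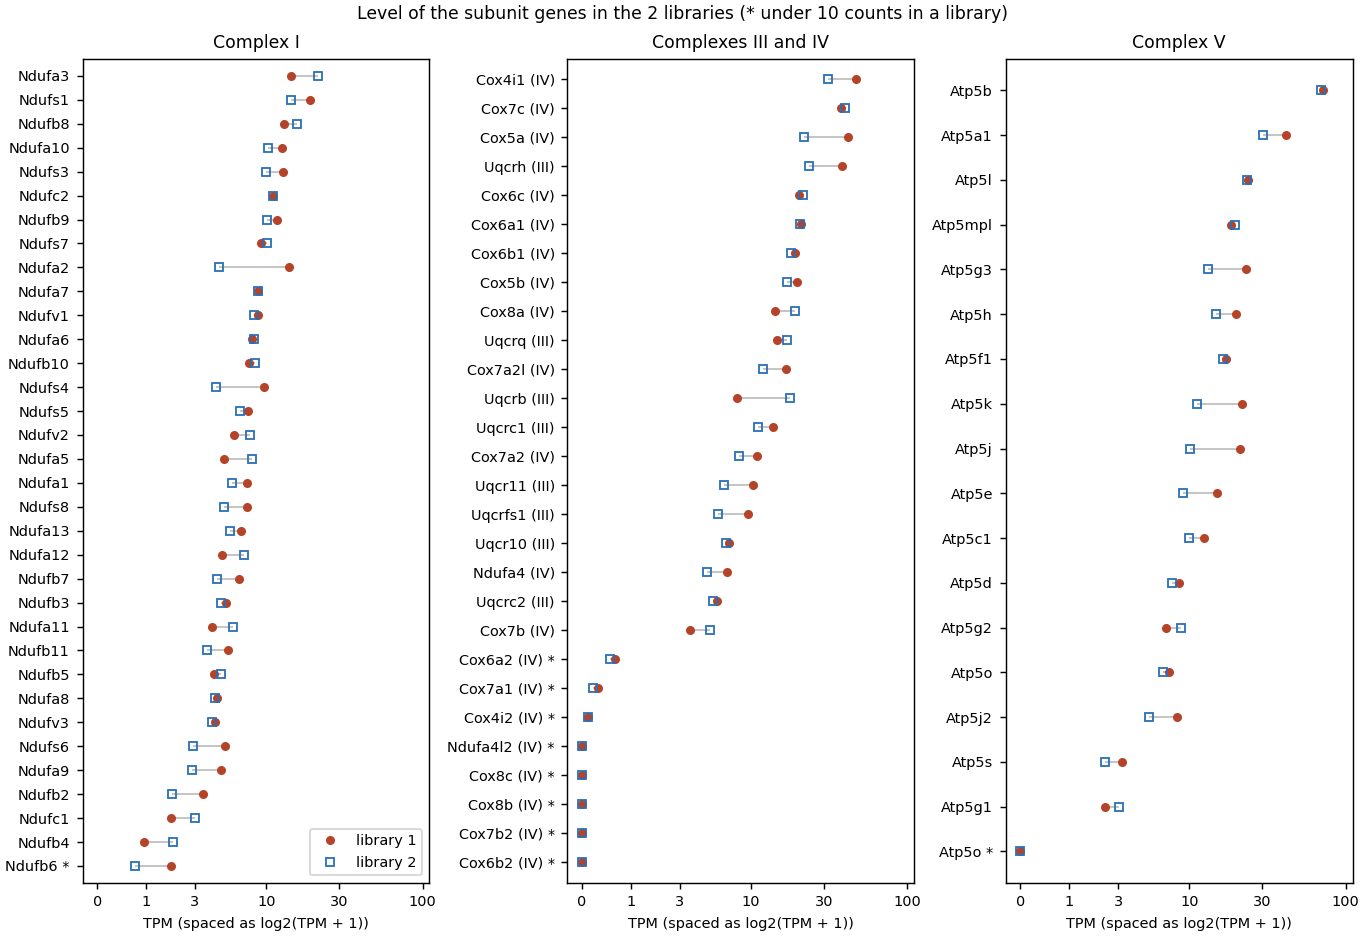
TPM of the subunit genes, spaced as log2(TPM + 1), in library 1 (filled circles) and library 2 (open squares), by complex and sorted by the mean, with 1 gene of complex I not shown. Atp5b stands highest at 71.7 and 70.4 TPM, and the 10 entries marked with an asterisk had under 10 counts in a library.

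Promoter sequence was compared across these genes, which lie on 19 chromosomes. RefSeq gave a window of 300 bases around the start, on GRCm38.p6, for 65 of the 80 symbols, 70 windows in all. The core of the site of NRF1 (nuclear respiratory factor 1, an activator of many mitochondrial genes), written GCGCANGCG and searched on both strands, was in 19 member windows (27.1%), against 8.58% of protein-coding and 6.25% of all promoter windows. The YY1 motif AAGATGGCG was in 7 windows (10%), against 1.83% and 1.40%. The ETS/GABP motif CCGGAAGT was in 5 (7.14%), against 5.15% and 3.89%. The SP1 motif GGGCGG was in 27 (38.6%), against 46.2% and 35.7%, and TATAAA in 8 (11.4%), against 12.6% and 13.6%. Windows of members had a median ratio of observed to expected CpG of 0.792, against 0.567 for protein-coding and 0.384 for all windows.

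The upstream parts of 5 windows show the range. Each begins 250 bases before the RefSeq start and is cut where the GENCODE gene begins. Bases of a searched motif, on either strand, are in capitals. Atp5b, the highest member, has 2 SP1 motifs (chr10:128083057-128083272, + strand). Uqcrh, the highest of complex III, has an ETS/GABP motif next to its start (chr4:116075072-116075320, - strand). Cox6a1 has 3 matches to the NRF1 core, of which 2 overlap on opposite strands, and 2 SP1 motifs (chr5:115348982-115349208, - strand). Ndufb4 also has 3 matches in its full window, 1 of them in the stretch shown (chr16:37654454-37654618, - strand). Cox7a1, a muscle form with 1 RSEM count in each library, has none of the 5 motifs (chr7:30183921-30184143, + strand).
Atp5b: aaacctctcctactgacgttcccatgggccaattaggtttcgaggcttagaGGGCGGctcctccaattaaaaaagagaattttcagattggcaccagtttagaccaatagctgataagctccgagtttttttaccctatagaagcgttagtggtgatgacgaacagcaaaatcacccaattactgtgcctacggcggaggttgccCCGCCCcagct
Uqcrh: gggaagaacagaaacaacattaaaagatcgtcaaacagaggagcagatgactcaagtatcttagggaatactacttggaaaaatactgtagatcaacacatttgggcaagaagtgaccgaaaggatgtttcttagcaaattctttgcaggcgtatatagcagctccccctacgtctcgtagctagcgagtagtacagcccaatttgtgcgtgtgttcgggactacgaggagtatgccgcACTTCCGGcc
Cox6a1: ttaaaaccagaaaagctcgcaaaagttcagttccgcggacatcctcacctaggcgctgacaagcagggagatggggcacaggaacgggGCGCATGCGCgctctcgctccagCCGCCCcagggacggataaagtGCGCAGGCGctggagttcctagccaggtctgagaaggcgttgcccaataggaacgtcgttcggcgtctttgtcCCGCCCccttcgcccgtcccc
Ndufb4: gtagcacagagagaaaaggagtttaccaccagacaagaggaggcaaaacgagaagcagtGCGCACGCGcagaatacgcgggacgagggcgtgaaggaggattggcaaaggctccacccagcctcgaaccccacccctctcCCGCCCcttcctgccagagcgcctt
Cox7a1: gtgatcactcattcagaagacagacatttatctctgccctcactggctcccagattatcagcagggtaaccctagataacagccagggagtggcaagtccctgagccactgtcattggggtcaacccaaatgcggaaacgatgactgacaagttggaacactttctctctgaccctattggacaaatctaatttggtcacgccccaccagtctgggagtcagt
A match to these letters is a description and not a binding site. The 18 detected genes with the NRF1 core had a median of 7.80 TPM in library 1 and 8.34 in library 2, and the 42 detected genes with a window but no match had 8.78 and 7.62 TPM. The 2 groups overlapped widely: Ndufb4, with 3 matches, was the lowest detected member of complex I, and Atp5b, with none, was the highest of all. The 4 tissue isoforms with a window had a median CpG ratio of 0.382, against 0.815 for the other members.

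Complex I carries 7 nuclear-encoded core subunits that bind the flavin and iron-sulphur clusters, and a larger number of accessory subunits around them. The core genes had a median of 9.15 TPM in library 1 and 9.93 in library 2, and the 28 accessory entries 5.93 and 5.18 TPM. Ndufs1, the largest iron-sulphur subunit (chromosome 1, 63143596 to 63176833, - strand, mm10), had 19.6 and 14.7 TPM, and Ndufs3 had 13.0 and 9.93 TPM. The cluster-binding subunit genes Ndufs7 and Ndufs8 had 9.15 and 10.1 TPM, and 7.38 and 5.08 TPM. Ndufv1, whose product binds the flavin where NADH is oxidised, had 8.78 and 8.26 TPM, and its partner Ndufv2 had 5.94 and 7.69 TPM. All 7 were detected, within a 2.75-fold range of mean level, against 12.6-fold for the 27 detected accessory genes. A range tends to widen with the number of genes, and both accessory extremes, Ndufa3 and Ndufb4, rest on few reads.

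The highest entry of complex I by TPM was the accessory gene Ndufa3 (chromosome 7, 3617373 to 3620327, + strand, mm10), with 14.5 TPM in library 1 and 22.0 in library 2. This rank rests on few reads, 63 and 87 counts over an effective length of 203 and 175 nt. The deposited credibility interval of its TPM ran to 65.1 in library 1 and 116 in library 2. At the low end, Ndufb4 had 0.95 and 1.94 TPM from 15.5 and 19.1 counts, and Ndufc1 had 1.83 and 3.01 TPM from 16 counts in each library. Ndufb6 was the only entry of complex I below the detection limit, with 18.2 counts in library 1 and 7.12 in library 2, or 1.86 and 0.72 TPM. Kallisto gave it 17.6 and 22.4 counts, above the limit in both.

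The remaining accessory genes of complex I filled the range between. Ndufb8 had 13.2 TPM in library 1 and 16.0 in library 2, and Ndufa10, a kinase-like subunit, had 12.8 and 10.2 TPM. Ndufb9 had 11.8 and 10.2 TPM, and Ndufc2 stood at 11.04 and 11.05 TPM, the smallest gap of the complex in TPM. Near the middle, Ndufa13, also known as GRIM-19 from its part in interferon and STAT3 signalling, had 6.68 and 5.54 TPM, and Ndufa1, a small membrane subunit encoded on the X chromosome, had 7.35 and 5.77 TPM. Ndufs6, a zinc-binding subunit, had 5.12 and 2.91 TPM, and Ndufa9, a subunit near the quinone chamber, had 4.77 and 2.84 TPM. Ndufb2 was low in TPM, at 3.50 and 1.87, despite 140 and 121 counts, since its estimated effective length was 1868 nt in library 1 and 2856 nt in library 2.

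Complex III was detected in full, 8 of 8. Uqcrh, the hinge subunit beside cytochrome c1 (chromosome 4, 116066965 to 116075071, - strand, mm10), was highest at 38.8 TPM in library 1 and 23.9 in library 2. The small accessory genes Uqcrq and Uqcrb had 14.9 and 17.2 TPM, and 7.99 and 18.2 TPM. The core proteins Uqcrc1 and Uqcrc2, which form a dimeric scaffold in equal amounts, had 14.0 and 11.1 TPM, and 5.78 and 5.44 TPM, so Uqcrc1 was higher in both libraries. Uqcrfs1, the Rieske iron-sulphur protein, had 9.46 and 5.88 TPM, and the small subunit genes Uqcr11 and Uqcr10 stood at 10.3 and 6.48 TPM, and at 7.06 and 6.68 TPM. Cytochrome c1 itself, from Cyc1, is outside the symbol rule and had 9.36 and 5.50 TPM.

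Complex IV divided into genes that were detected and tissue isoforms that were not, by RSEM counts. Cox4i1, the ubiquitous form of the regulatory subunit 4 (chromosome 8, 120668222 to 120674207, + strand, mm10), had 47.5 TPM in library 1 and 31.9 in library 2. Cox7c had 38.3 and 40.8 TPM, and Cox5a had 42.4 and 22.4 TPM. Cox6c had 20.8 and 22.0 TPM, and Cox5b, whose product holds a zinc ion, had 20.1 and 17.3 TPM. The lowest detected genes were Cox7b, at 3.62 and 5.16 TPM, and Ndufa4, at 6.78 and 4.92 TPM. The 12 detected genes are those of the common forms, and the 8 that fell below the limit are the forms known from heart, skeletal muscle, testis, lung or hypoxic cells. Subunit isoforms are read in pairs below.

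For every subunit with a common and a tissue form, the common form carried most of the signal with both quantifiers. Cox6a1 had 21.3 TPM in library 1 and 21.1 in library 2, and its muscle form Cox6a2 had 0.59 and 0.48 TPM, from 6 and 5 counts. Cox4i2, the lung and hypoxia form of Cox4i1, had 1 count in each library, as did Cox7a1, the muscle form of Cox7a2. Cox7a2 had 11.0 and 8.21 TPM, and its relative Cox7a2l had 17.1 and 12.1 TPM. Cox6b1 had 19.7 and 18.5 TPM, and Cox8a had 14.4 and 19.6 TPM. RSEM placed no count on Cox6b2, Cox7b2, Cox8b, Cox8c or Ndufa4l2 in either library, where a count of 0 allows up to 3 counts, or 0.152 CPM (counts scaled to library size) in library 1 and 0.174 CPM in library 2. Kallisto, the second quantifier, gave 6 of the 8 tissue forms more reads, with 4 and 6 counts on Cox7b2, 5 and 0 on Cox8b, and 1 and 0 on Ndufa4l2. It gave Cox6b2 and Cox8c none. It placed 15 and 21 counts on Cox6a2, 12 and 22 on Cox7a1, and 15 and 10 on Cox4i2, so these 3 reached the limit of 10 in both libraries. As kallisto TPM, Cox7a1 had 0.45 and 1.33 and Cox7a2 had 6.55 and 10.03.

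Ndufa4 has a close relative, AA467197, that is known to replace it in complex IV in inflamed cells. AA467197 had 4.94 TPM in library 1 and 2.01 in library 2, from 60 and 26 counts, against 6.78 and 4.92 TPM for Ndufa4. Both were detected, and Ndufa4 was the higher in each library. The third relative, Ndufa4l2, a hypoxia-induced form, had no counts by RSEM, and 1 and 0 counts by kallisto.

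**Figure D2:**
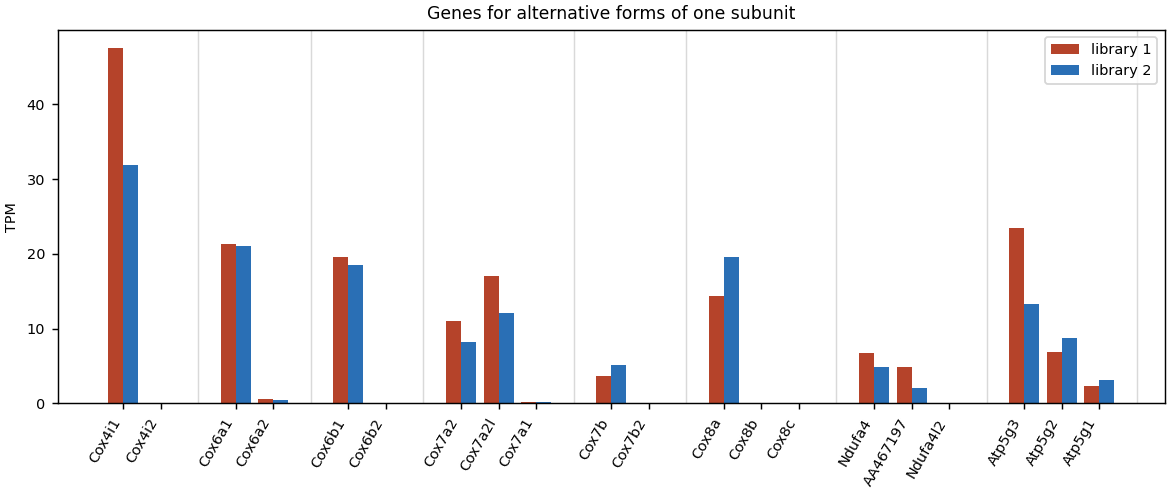
RSEM TPM of genes that encode alternative forms of one subunit, in library 1 (left bar of each pair) and library 2 (right bar). In the sets with a tissue isoform the common forms, AA467197 aside, stand between 3.62 and 47.5 TPM and the tissue isoforms at or below 0.59 TPM, while all 3 c-subunit genes (Atp5g1, Atp5g2, Atp5g3) were detected.

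Complex V has a catalytic head, the F1 part, on a stalk and a membrane ring. Atp5b, the catalytic β subunit (chromosome 10, 128083273 to 128090391, + strand, mm10), had 71.7 TPM in library 1 and 70.4 in library 2. Atp5a1, the α subunit, had 42.3 and 30.4 TPM, although both are present in equal number in the head. The gap was smaller between their main protein-coding transcripts, at 36.6 and 33.9 TPM for Atp5b and 35.8 and 28.3 TPM for Atp5a1. By expected counts Atp5a1 was the higher in library 1, with 1952 against 1751, and the lower in library 2, with 1490 against 1673. The smaller head genes Atp5c1, Atp5d and Atp5e had 12.6 and 9.90 TPM, 8.54 and 7.54 TPM, and 15.3 and 9.05 TPM. Among membrane subunits, Atp5l had 24.3 and 23.8 TPM, Atp5mpl 19.0 and 20.0 TPM, and Atp5k 22.2 and 11.2 TPM. Atp5k and Atp5l encode subunits that hold the enzyme together in dimers, and Atp5j2, the fourth membrane gene, had 8.20 and 5.24 TPM. The stalk genes Atp5f1, Atp5h, Atp5j and Atp5o ran between 7.19 and 21.6 TPM in library 1 and between 6.58 and 16.7 TPM in library 2. A second entry with the symbol Atp5o, which overlaps the first and Donson on the same strand, had no counts. Atp5s, coupling factor B, an associated protein, was low at 3.23 and 2.33 TPM.

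The c ring is made of copies of one mature peptide that 3 genes encode, so their levels add to a single subunit. Atp5g3 had 23.5 TPM in library 1 and 13.3 in library 2, Atp5g2 had 6.90 and 8.73 TPM, and Atp5g1 had 2.30 and 3.08 TPM. The order was the same in both libraries. The coding sequences (GENCODE M21) end in 78 codons that translate to the same residues in all 3 genes. They are shown for the bases by which reads can be told apart. Bases that are not the same in all 3 are in capitals.
Atp5g1: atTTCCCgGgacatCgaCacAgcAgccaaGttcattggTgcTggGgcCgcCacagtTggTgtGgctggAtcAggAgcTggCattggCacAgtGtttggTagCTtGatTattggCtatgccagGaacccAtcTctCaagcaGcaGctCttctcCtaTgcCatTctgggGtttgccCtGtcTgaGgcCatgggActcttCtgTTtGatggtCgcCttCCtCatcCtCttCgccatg
Atp5g2: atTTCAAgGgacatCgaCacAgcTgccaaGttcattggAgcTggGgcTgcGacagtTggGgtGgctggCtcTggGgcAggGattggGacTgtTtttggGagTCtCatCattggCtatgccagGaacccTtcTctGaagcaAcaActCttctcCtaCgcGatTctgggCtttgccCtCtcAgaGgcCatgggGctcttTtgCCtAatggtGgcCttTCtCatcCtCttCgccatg
Atp5g3: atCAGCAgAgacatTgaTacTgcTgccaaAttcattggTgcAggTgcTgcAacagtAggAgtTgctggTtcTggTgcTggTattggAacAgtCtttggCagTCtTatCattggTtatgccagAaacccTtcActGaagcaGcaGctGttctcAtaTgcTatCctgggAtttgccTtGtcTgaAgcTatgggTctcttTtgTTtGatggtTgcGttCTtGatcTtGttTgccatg
Of these 234 bases 171 (73.1%) were equal in all 3, and 55 of the 78 codons were written differently in at least 1 gene. Atp5g1 and Atp5g2 shared 84.6% of the bases, Atp5g1 and Atp5g3 78.6%, and Atp5g2 and Atp5g3 77.4%. Atp5g2 was also 1 of the genes on which the quantifiers differed. Kallisto gave it 0.79 and 2.68 TPM, a centred log2 difference of -1.16 from RSEM. RSEM counts were whole for Atp5g1 and Atp5g3 and not for Atp5g2, whose exons overlap Mir688 on the same strand. Why the quantifiers differ on Atp5g2 was not tested.

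The libraries were compared gene by gene as log2((TPM + 1) in library 1 / (TPM + 1) in library 2), with the median over detected protein-coding genes set to 0, which removed a shift of 0.27. With 1 library on each side there is no replicate check and no p-value. The detected members had a median ratio of -0.12, with 31 higher in library 1 and 40 higher in library 2. By complex the median was -0.19 for complex I, -0.09 for complex III, -0.13 for complex IV and 0.04 for complex V. Without centring the members' median was 0.16, so its sign follows the scale. Over the 71 detected members Pearson's r of log2(TPM + 1) between the libraries was 0.897 and Spearman's rho 0.884, given as a description.

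Past 2-fold there was 1 member in each direction. Ndufa2, an accessory subunit of complex I, had 14.2 TPM in library 1 and 4.65 in library 2, from 112 and 37 counts, a centred log2 ratio of 1.15. With kallisto its ratio was 0.61, within 2-fold. Uqcrb, an accessory subunit of complex III, had 7.99 TPM in library 1 and 18.2 in library 2, from 58 and 130 counts, a ratio of -1.37, and -1.22 with kallisto. Of all detected protein-coding genes 0.857% were over 2-fold higher in library 1 and 0.738% over 2-fold higher in library 2, so 1 of 71 in each direction is near the background.

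Counting error alone was smaller than the gap for a minority of the members. An exact 95% interval of the count ratio, scaled to the median gene, did not hold 1 for 25 of the 71 (35.2%), 10 higher in library 1 and 15 higher in library 2, against 52.9% of detected protein-coding genes, many of which have more counts and narrower intervals. For Ndufa2 the count ratio was 2.51 (1.72 to 3.74) and for Uqcrb 0.37 (0.27 to 0.51). Other members outside the interval were Cox5a at 1.48 (1.26 to 1.74), Atp5j at 1.57 (1.23 to 2.02) and Ndufv2 at 0.59 (0.46 to 0.75). Such intervals cover counting error only, because there is 1 library on each side. The libraries carried no stated molecular identifiers and reads need not be separate molecules, so the intervals may be too narrow even for that error. TPM and counts could part where the estimated length moved. Ndufs4 had 9.68 TPM in library 1 and 4.42 in library 2, but 123 and 101 counts, with an effective length of 593 and 1010 nt.

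**Figure D3:**
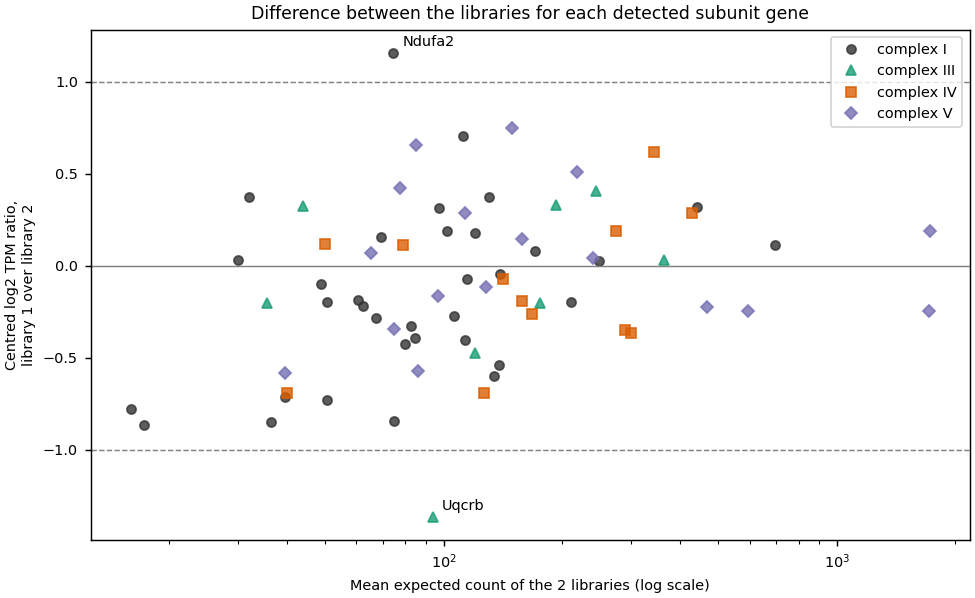
Centred log2 TPM ratio, library 1 over library 2, of each detected subunit gene against its mean expected count on a log axis, by complex. The dashed lines mark 2-fold, and Ndufa2 at 1.15 and Uqcrb at -1.37 are the only genes outside them.

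Much of the signal of some members lay in transcripts that are not annotated as protein-coding. The median member had 84.0% of its TPM in protein-coding transcripts, 86.1% in library 1 and 85.7% in library 2 taken alone, against 79.5% over all detected protein-coding genes. A total of 15 detected members have no other kind of transcript in the annotation. For the 56 that do, the median was 80.0%, against 71.7% for such genes in general. Below 50% were 11 members (15.5%), against a background of 18.3%. In RNA of the nucleus, reads of introns not yet removed can be assigned to transcripts annotated as retained introns, and the 2 cannot be told apart here.

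The 11 genes differed in which class took their signal. For Ndufa5 only 5.47% was protein-coding, with 67.1% in a retained-intron transcript in library 1 and 83.5% in a processed transcript in library 2, from 30 and 43 counts. Ndufa3 had 21.8%, and a transcript of 343 nt annotated for nonsense-mediated decay held 70.2% of its TPM in library 1 and 77.9% in library 2. The split of Ndufa3 was close in both libraries, while that of Ndufa5 was not. Ndufa10 had 18.9% in protein-coding transcripts and 56.3% in retained introns. Cox5b had 25.9%, with a processed transcript at 41.7% in library 1 and 61.9% in library 2. In complex V, Atp5f1, a stalk subunit, had 27.3% and Atp5j, another, 30.7%, with 67.7% of Atp5j in retained introns. Atp5j overlaps Gabpa, the gene of the GABP α subunit, on the opposite strand, and how their shared reads were split is uncertain.

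The other 5 were nearer the limit. Cox7b had 38.2%, Ndufs4 46.7%, Ndufa7 47.0%, Ndufb4 48.8% and Atp5b 49.6%. For Ndufb4 the share was 85.3% in library 1 and 12.4% in library 2, on 15.5 and 19.1 counts. For Atp5b, with the most TPM of any member, it was 51.1% and 48.2%, and its protein-coding transcript had 36.6 TPM in library 1 and 33.9 in library 2.

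**Figure D4:**
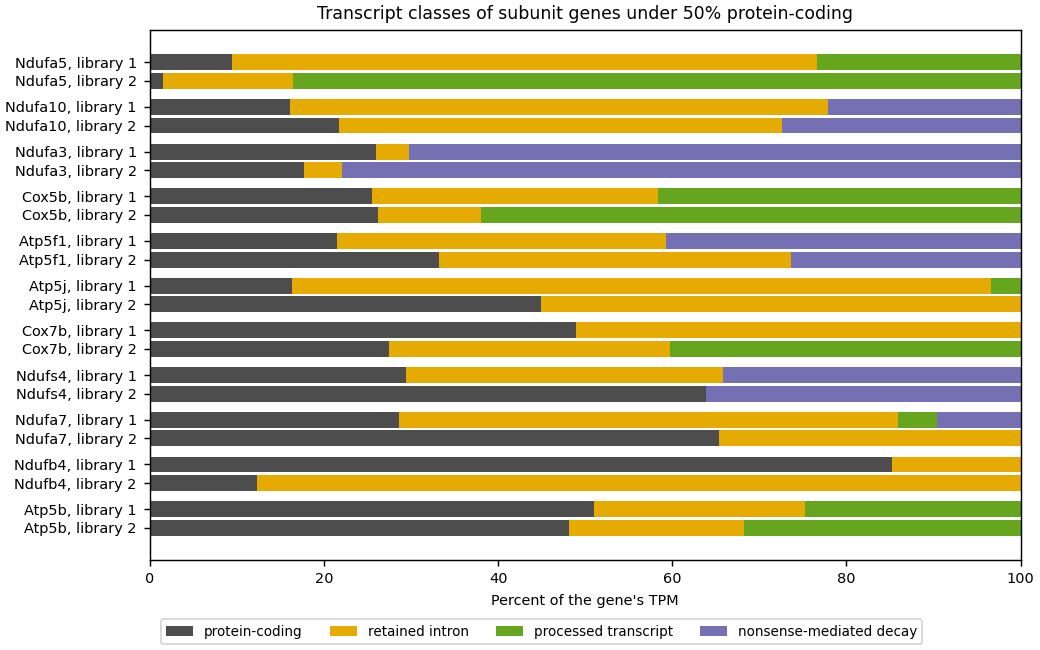
Percent of each gene's TPM by annotated transcript class in library 1 (upper bar) and library 2 (lower bar), for the 11 detected members under 50% protein-coding. The shares of Ndufa3 and Atp5b were close in the 2 libraries, while Ndufb4 had 85.3% and 12.4%.

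The 2 quantifiers placed some genes differently. Kallisto TPM was lower than RSEM TPM for the median detected gene by 1.01 on the log2 scale, and differences are given relative to that. Among all members they were largest for Cox7a1 and Cox4i2, each with 1 RSEM count in each library, and then for Ndufs8, Ndufb2 and Ndufa7, which kallisto placed higher by 1.52, 1.40 and 1.28. Ndufs8 had 7.38 and 5.08 TPM by RSEM and 6.09 and 11.7 TPM by kallisto, with centred library ratios of 0.19 and -0.25. The level of these genes is thus less certain than their counts alone would show. Kallisto TPM also ran higher in library 2, by 0.59 on the log2 scale for the median detected gene, with a pseudocount of 1 TPM. Its uncentred values therefore do not compare the libraries. In 18 members the RSEM counts were not whole, within 0.005, which means that reads were shared with other genes. Exons of 6 members overlap another gene on the same strand and those of 26 on the opposite strand, and the sources used here do not say whether counting used the strand.

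Genes of the same pathway outside the rule were detected in most cases. The 4 genes of complex II, the succinate dehydrogenase that feeds electrons from the citric acid cycle, were all detected, with a median of 15.5 TPM in library 1 and 12.7 in library 2. Sdha, its flavin subunit, had 41.5 and 33.1 TPM. Of 6 further subunits and carriers all were detected, among them cytochrome c (Cycs) at 11.1 and 7.97 TPM and Atpif1, the ATP synthase inhibitor, at 22.2 and 24.6 TPM. Assembly factors, which build the complexes but do not stay in them, had 42 of 47 detected at a median of 3.08 and 2.50 TPM. Coa5, Cox17 and Pet100, which serve complex IV, led them by the mean of both libraries, at 21.4 and 23.3, 22.6 and 19.9, and 15.7 and 23.2 TPM.

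A list of regulators of nuclear or mitochondrial genes of the chain had 13 of 14 detected, with a median of 8.06 TPM in library 1 and 7.19 in library 2. It includes Tfam, Tfb1m, Tfb2m and Polrmt, which act on mitochondrial DNA and not on the nuclear subunit genes. Esrra, a nuclear receptor that drives oxidative genes, had 29.95 and 18.6 TPM, Nrf1 10.01 and 7.08 TPM, and Gabpa 7.98 and 7.81 TPM. Ppargc1a, the coactivator known from muscle and brown fat, was the one below the limit, at 0.02 and 0 TPM, while its relatives Pprc1 and Ppargc1b had 14.3 and 7.73, and 3.84 and 2.22 TPM. Protein-coding genes whose symbol is Rpl or Rps and a digit, chosen for the cytosolic ribosomal proteins, had a median of 25.9 and 19.6 TPM. Of these, 87 of 98 were detected. The pattern also takes kinase genes with Rps6k symbols and leaves out Rpsa and the Rplp genes. Genes whose symbol is Mrpl or Mrps and a digit, for mitochondrial ribosomal proteins, had 3.42 and 3.10 TPM with 75 of 78 detected. The subunit genes thus lay between these 2 symbol sets in both libraries.

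The subunits encoded in mitochondrial DNA stood far above their nuclear partners and differed more between the libraries. Their median was 1596 TPM in library 1 and 4217 in library 2, which is 195 and 548 times the median of the nuclear members. In complex IV, mt-Co1 had 8493 TPM in library 1 and 18824 in library 2, against 47.5 and 31.9 TPM for Cox4i1. The centred log2 ratio of the 12 detected mitochondrial genes had a median of -1.53, against -0.12 for the nuclear members. The one not detected, mt-Co2, had 121 TPM in library 1 and is listed at 0 in library 2 by RSEM. Kallisto gave it 243 and 240.2 TPM, a centred log2 ratio of 0.61. These mRNAs are made in the mitochondrion, outside the nucleus.

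**Figure D5:**
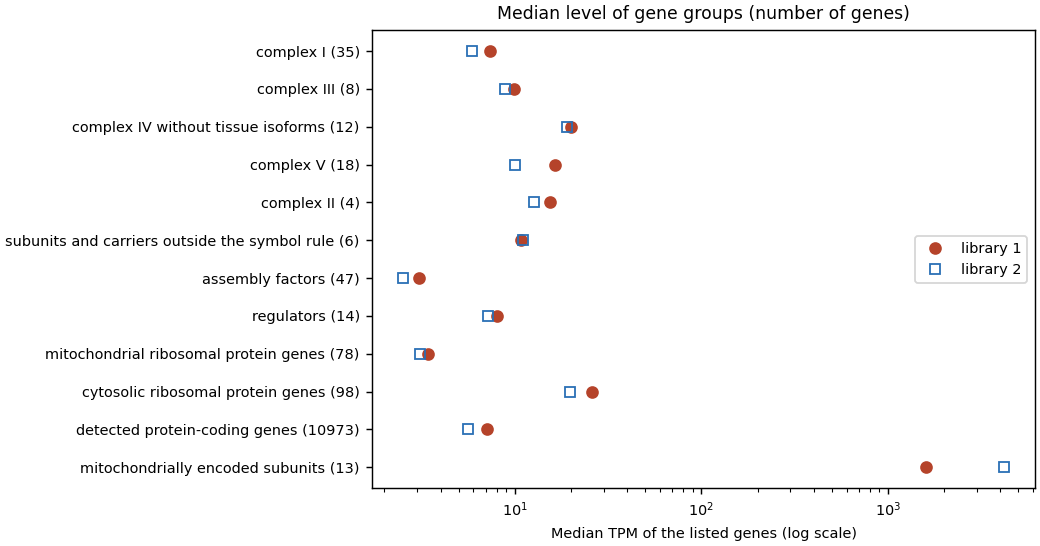
Median TPM, on a log axis, of the subunit genes by complex and of related gene groups in library 1 (filled circles) and library 2 (open squares), with the number of genes. Mitochondrially encoded subunits stand at 1596 and 4217 TPM, and every nuclear group between 2.50 and 25.9 TPM. The cytosolic ribosomal group was taken by symbol and also holds kinase genes with Rps6k symbols.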

How the data were processed

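Each library came with RSEM gene and transcript tables and a kallisto transcript table, named here after their column layouts. Per the labels the assembly is mm10, and per the submitters' notes deposited with the files the annotation is GENCODE M21. The sources used here give no aligner, version or strand setting. Expected counts (estimates that need not be whole) and TPM were used as the authors deposited them, with short RNAs included in the TPM total. The effective length and the interval of TPM, a score of precision whose level is not stated, are also deposited values, per the file headers. Features without a gene name held 0.653% of counts in library 1 and 0.222% in library 2 and were left out.

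A gene was detected where both libraries had at least 10 expected counts. Symbols and transcript classes came from the kallisto identifiers. Percentiles are among 10973 detected protein-coding genes, and the SD beside a percentile is that of the 2 libraries taken singly. Ratios used a pseudocount of 1 TPM. Exact intervals of count ratios are Clopper-Pearson at 95%. TMM factors came from edgeR 4.0.16 in R 4.3.3 on counts rounded to whole numbers, as an alternative only. Scripts ran in Python 3.11.15 with scipy 1.17.1 and were tested on simulated data.

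The members and lists were chosen with earlier results of these data known. Named are, per complex, the 3 highest and 2 lowest detected members, all paralogues, the core of complex I, members past 2-fold or under 50% protein-coding, and the 5 on which the quantifiers differ most. Others are added as examples, and 1 gene that the rule would name is not reported here. With 1 group no test was run. Alternatives were kallisto, expected counts, other count minimums, pseudocounts and scalings, and each library alone.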

Additional observations from a re-analysis of the deposited data

Results flagged for a closer look

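A total of 12 further genes match the symbol pattern but have no transcript annotated as protein-coding, so the levels above do not include them. Ndufb1-ps and Ndufb4c are listed because they held more than the 3 counts that a count of 0 allows in both libraries. Ndufb1-ps had 176.13 expected counts in library 1 and 103 in library 2, or 14.2 and 9.32 TPM, more than most detected members of complex I. GENCODE M21 classes it as a non-coding RNA of a bidirectional promoter, while RefSeq on GRCm38.p6 gives the same symbol as a synonym of Ndufb1, a protein-coding gene on chromosome 12 for a complex I subunit. Ndufb4c, a processed pseudogene in GENCODE and a protein-coding gene in RefSeq, had 14.53 counts in library 1 and 14.89 in library 2, close to the 15.5 and 19.1 of Ndufb4, with fractional values in both. How the reads of Ndufb4 and Ndufb4c divide was not tested.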

How the results depend on the processing

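The place of the members among other genes depended on the scale and on the genes they were set against. With kallisto the percentile was 51.7 for all members, 49.9 for complex I, 58.5 for complex III, 56.3 for complex IV and 66.1 for complex V. Complex IV is here all 20 entries, tissue isoforms included, for which RSEM TPM gave 54.9. The set without them was not recomputed with kallisto. By expected counts the percentile was 26.6, 23.9, 34.9 and 19.7, and 30.8 for complex V. With no count minimum, which adds silent genes below the members, it was 77.9, 75.2, 81.3, 77.4 and 84.9. With 50 counts in both libraries, which removes low genes, it was 45.9, 39.5, 54.2, 44.7 and 62.9. With 1 library alone it ran from 55.5 to 59.2 for all members, 52.1 to 52.7 for complex I, 60.02 to 62.7 for complex III, 55.6 to 57.5 for complex IV and 65.5 to 71.9 for complex V.

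The number detected ran from 56 to 75 over the 5 alternatives, and the 4 that kallisto adds are Ndufb6, Cox6a2, Cox7a1 and Cox4i2. The median ratio was -0.17 with a pseudocount of 0.1 and -0.069 with TMM-scaled counts, and reversed to 0.16 without centring. Members over 2-fold apart numbered 1 with kallisto, 1 at 50 counts, where Ndufa2 is left out, 3 without centring and 5 with a pseudocount of 0.1, against 2. The protein-coding share was 76.6% with kallisto and 83.2% at 50 counts, and ran from 85.7% to 86.9% with 1 library alone, over the 71 members detected in library 2 and the 72 in library 1 by that library's own counts. Kallisto moved the mean level of 67 of the 81 entries by more than the SD of the libraries, 60 of them lower, where the median detected gene is lower by 1.01 on the log2 scale. No paired analysis was possible because there is 1 group.

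Depth limits the low genes most: 15 of the 71 detected members had under 50 counts in a library.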
